A study of Aptenodytes patagonicus with 7 samples.

Results

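The genes described here code for the respiratory chain and the ATP synthase of mitochondria, measured in pectoralis, the main flight muscle, which penguins use to swim, in juvenile king penguins (Aptenodytes patagonicus). They were chosen by gene symbol, as every gene whose symbol begins with NDUF, UQCR, COX4 to COX8 or ATP5, or is SDHB, SDHC, SDHD or CYC1. Earlier results of these data were known when this rule was set. Of the 12920 genes that the chicken array represents by a probe set with a single symbol, 73 met this rule. Complex I accounted for 41 of them, 33 subunits and 8 assembly factors, complex II for 1, complex III for 8, complex IV for 9 and the ATP synthase for 14. SDHB, SDHC and CYC1 were not analysed here. NDUFA4 was counted in complex IV, where the protein is now placed in spite of its name, and 63 of the 73 genes code for structural subunits.

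The study compared 2 groups of birds, each bird a separate animal with an array of its own. The NI group (never-immersed) held 4 birds, 3 females and 1 male, with no experience of the sea. The SA group (sea-acclimated) held 3 birds, 2 females and 1 male, already used to living there. All 7 were juveniles captured for a biopsy under isoflurane, the labels name no other treatment, and NI bird 4 and SA bird 3 were the males. The groups hold different birds and not repeated biopsies of the same ones, so that acclimation and other differences between the birds cannot be told apart.

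In muscle, the respiratory chain passes electrons from NADH and succinate to oxygen and pumps protons across the inner mitochondrial membrane, and the ATP synthase uses the returning protons to make ATP. Complex I takes electrons from NADH in its peripheral arm, made of an N module, which binds NADH and holds the flavin, and a Q module, which hands the electrons to ubiquinone, and it pumps protons through its membrane arm. Complex II feeds in electrons from succinate, complex III passes them from ubiquinol to cytochrome c, and complex IV passes them on to oxygen. Some core subunits are coded by mitochondrial DNA, and all genes described here lie in the nucleus.

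Each value is the log2 intensity of a single chicken probe that the authors kept for a probe set, after quantile normalization of the 7 arrays. Because penguin RNA was hybridized to chicken probes, the intensity depends on how well the sequences match, and levels were compared between birds and not between genes. Where a gene had several probe sets, the one with the highest mean over the 7 birds stands for it. Differences are SA minus NI on the log2 scale, tested with limma, and a gene was called where its p was under 0.10 after the Benjamini-Hochberg adjustment for all 36897 probe sets. Of all probe sets 1.07% were called, and of the 12920 genes 1.55%. The array medians lay between 8.58 and 8.59, and pairs of arrays correlated at 0.957 to 0.975 among NI birds, 0.949 to 0.979 among SA birds and 0.941 to 0.974 between the groups.

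Only 2 of the 73 genes were called between the groups, both lower in SA birds and both coding for the N module of complex I. They were NDUFV2, which carries an iron-sulphur cluster beside the flavin, and NDUFA7, an accessory subunit. No member was called higher. At an unadjusted p under 0.05 there were 13 members, 10 lower and 3 higher, or 17.8%, against 12.4% of all genes and 16.9% of the brightest 25% of genes. The called share was 2.74% of the members, against 1.55% of all genes, and 0.967% of all genes were called lower. As 52 of the 73 members lay among the brightest 25% of genes, these are the nearer background, and among them 2.51% were called.

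For NDUFV2, the log2 intensities of NI birds 1 to 4 were 13.84, 13.65, 13.65 and 13.73, and those of SA birds 1 to 3 were 13.16, 13.27 and 13.17. Every SA bird lay below every NI bird, with a gap of 0.38 between the groups, wider than the spread within either group. The difference was -0.52 (SE 0.11, 95% interval -0.76 to -0.28), an intensity 0.698 times that of NI birds, with a limma adjusted p of 0.0856. For NDUFA7, the values were 13.26, 13.23, 12.92 and 12.98 in NI birds and 12.39, 12.19 and 12.64 in SA birds. These groups did not overlap either, and SA bird 3 was the nearest to the NI birds. The difference of NDUFA7 was -0.69 (SE 0.15, 95% interval -1.02 to -0.36), 0.62 times the NI intensity, with a limma adjusted p of 0.0958.

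Both calls lay close to the threshold. NDUFV2 passed it in none of the 7 fits that left out a bird, with limma adjusted p between 0.119 and 0.243. NDUFA7 passed only in the fit without NI bird 3, at 0.0952, and reached 0.264 without SA bird 2. Neither passed with sex as a term (0.135 for NDUFV2 and 0.133 for NDUFA7). In each of these fits both differences stayed negative.

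**Figure D1:**
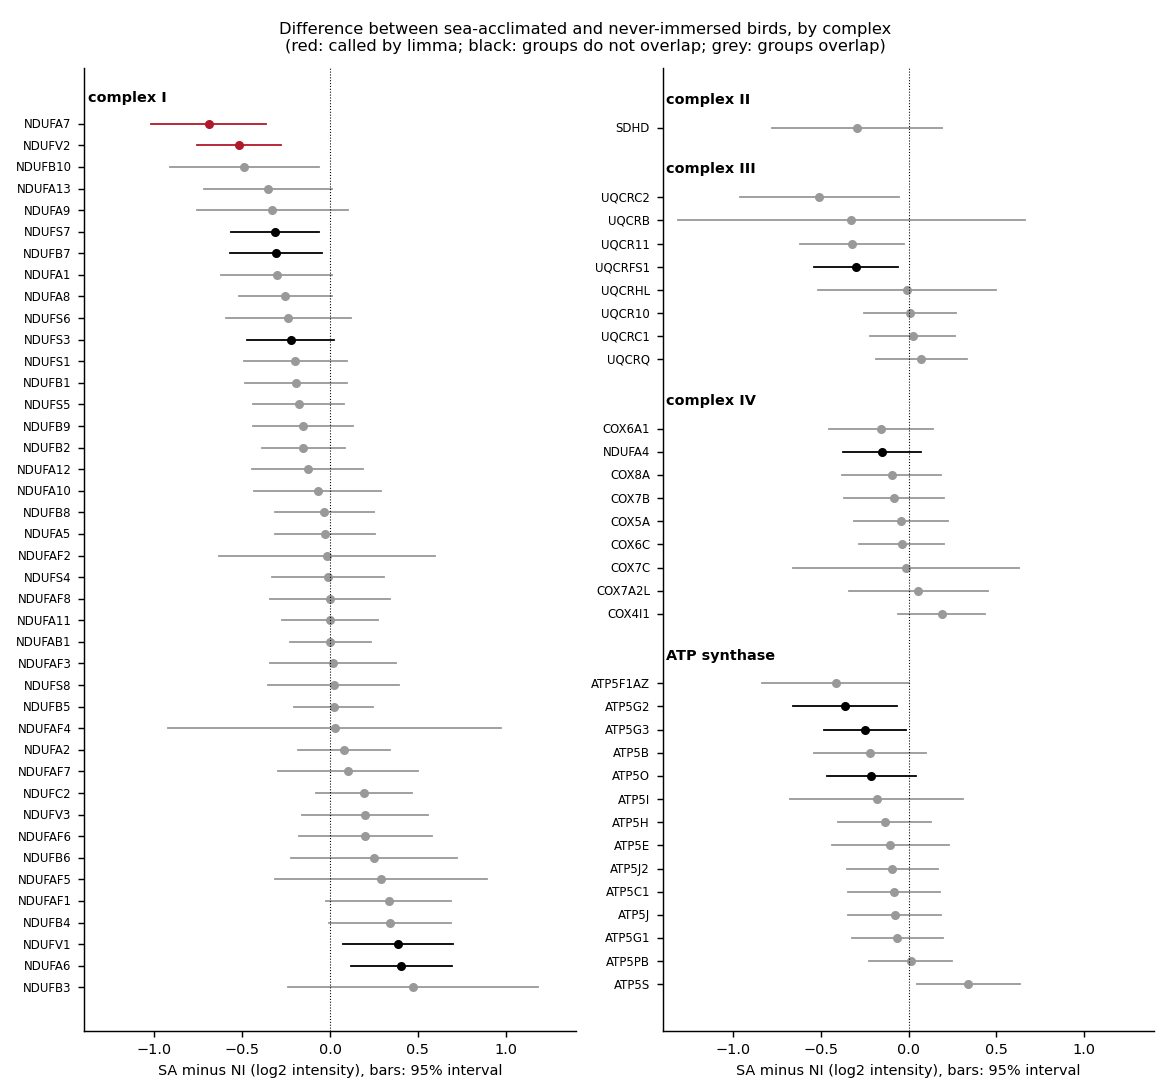
SA minus NI difference of each of the 73 members (log2 intensity, horizontal axis), grouped by complex, with points for the estimate and bars for the 95% interval from limma. The 2 called members, NDUFA7 at -0.69 and NDUFV2 at -0.52, are red, and members whose groups did not overlap are black.

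Over all members, called or not, more leaned towards lower than higher values in SA birds. The difference was negative in 48 of 73 members (65.8%), against 49.4% of all genes and 49.0% of the brightest 25%. Of the 52 members among those brightest genes, 32 (61.5%) were negative. All members were read in the same 7 birds, so that such counts describe the list and are not separate observations. The median was -0.08 against 0.00 over all genes. Among the 71 members not called, 46 (64.8%) were negative, with a median of -0.07, and 8 (11.3%) had all SA birds below all NI birds. Among all 73 members, all 3 SA birds lay below all 4 NI birds in 10, or 13.7%, where 5.93% of all genes and 7.68% of the brightest 25% did so. They lay above in 2 members, or 2.74%, where 5.6% of all genes and 6.56% of the brightest 25% did so. Leaving out a bird makes separation easier for every gene. Without SA bird 1 the 10 became 18, or 24.7% of members against 12.9% of genes. The 2 became 4 when NI bird 2 was left out, or 5.48% of members against 8.22% of genes. They became 5 without NI bird 3, or 6.85% of members against 8.46% of genes. Without SA bird 1 they were also 5, or 6.85% against 14.5%. With SA bird 2 left out they became 6, or 8.22% of members against 9.04% of genes.

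The N module of complex I held both called genes. It is also where both members with SA birds above NI birds were counted, though the placement of NDUFA6, at the base of the peripheral arm, in this module is open. Of its 10 measured subunits 6 had a negative difference, with a median of -0.07. NDUFV1 is the subunit that binds NADH and the flavin and touches NDUFV2 in the complex. Its values were 10.94, 11.18, 11.20 and 11.26 in NI birds and 11.32, 11.78 and 11.49 in SA birds. The groups were 0.06 apart, and the difference was 0.39 (SE 0.14, limma adjusted p 0.344). NDUFA6 is an accessory subunit of the LYR family. NI birds read 12.08, 12.34, 11.99 and 12.12 and SA birds 12.37, 12.58 and 12.65, so that SA bird 1 lay 0.03 above NI bird 2. The difference of NDUFA6 was 0.41 (SE 0.13, limma adjusted p 0.257). Neither NDUFV1 nor NDUFA6 was called.

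In the Q module, 3 of 4 subunits had a negative difference, with a median of -0.13, no call and 1 unadjusted p under 0.05. NDUFS7, which holds the last iron-sulphur cluster before ubiquinone, read 13.67, 13.41, 13.52 and 13.47 in NI birds and 13.27, 13.22 and 13.12 in SA birds. The groups did not overlap, and the difference was -0.31 (SE 0.11, limma adjusted p 0.335). NDUFS3, another core subunit, also had SA birds below NI birds, by a gap of 0.04, with a difference of -0.22 (SE 0.11, limma adjusted p 0.54). Its probe set was dim, at brightness percentile 7.1 among genes.

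The 19 subunits of the membrane arm and other accessory subunits had a median of -0.15, with 12 negative, none called and 2 at an unadjusted p under 0.05. NDUFB7, an accessory subunit on the side of the intermembrane space, was the member of this class without overlap. It read 9.83, 10.11, 9.91 and 10.03 in NI birds and 9.64, 9.77 and 9.58 in SA birds, a difference of -0.31 (SE 0.12, limma adjusted p 0.364). NDUFB3, also of the membrane arm, had the most positive difference of all members, 0.47, but its birds overlapped widely. NI birds spanned 11.32 to 12.65 and SA birds 11.92 to 12.86, and the interval ran from -0.24 to 1.19. The other NDUFB3 probe sets, dimmer at means of 10.88, 7.60 and 7.13 against 12.23, gave 0.01, 0.02 and -0.09. The 8 assembly factors, which help to build complex I and are not part of it, had a median of 0.06, with 2 negative, none called, 0 at an unadjusted p under 0.05 and no separation of the groups. For the 33 subunits alone the median was -0.13, with 21 negative.

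**Figure D2:**
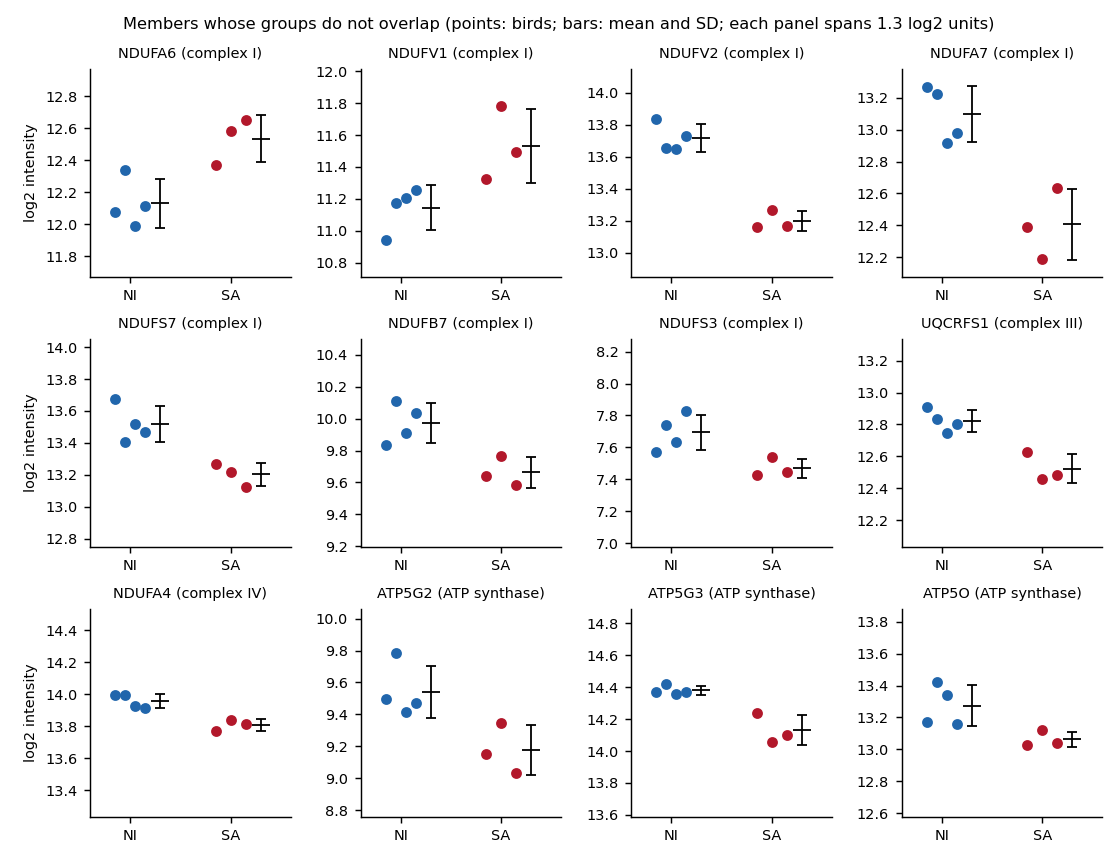
Log2 intensity in each bird (vertical axis) of the 12 members whose NI and SA birds did not overlap, with points for birds and bars for mean and SD. In 10 panels the SA birds lie below the NI birds, and in NDUFA6 and NDUFV1 above; the gap of NDUFV2 is 0.38 and that of NDUFA6 is 0.03.

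Complex II was represented by SDHD, a membrane anchor of succinate dehydrogenase. It read 11.40, 11.46, 10.74 and 11.10 in NI birds and 11.21, 10.49 and 10.95 in SA birds. The groups overlapped, and the difference was -0.29 (SE 0.22, limma adjusted p 0.732). The other SDHD probe set was dimmer, with a mean log2 intensity of 7.67 against 11.05. It gave 0.31 with all SA birds above all NI birds and a limma adjusted p of 0.451. The 2 probe sets thus pointed opposite ways, and neither was called.

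In complex III, 5 of 8 members had a negative difference, with a median of -0.15, no call and 3 at an unadjusted p under 0.05. The median depended on single birds and was 0.00 when NI bird 4 was left out and -0.07 when NI bird 2 was. UQCRFS1, the Rieske iron-sulphur protein that takes electrons from ubiquinol, read 12.91, 12.83, 12.74 and 12.81 in NI birds and 12.63, 12.46 and 12.48 in SA birds. It was the member of this complex without overlap, at -0.30 (SE 0.11, limma adjusted p 0.33). Its other probe set gave -0.25 with overlapping groups. UQCRC2, one of the core proteins on the matrix side, had the lowest difference, -0.51 (SE 0.20, limma adjusted p 0.398). Its low values came from SA birds 2 and 3, at 10.04 and 10.51, while SA bird 1, at 10.88, lay among NI birds, which spanned 10.80 to 11.30. The other UQCRC2 probe sets, dimmer at means of 8.99 and 8.76 against 10.77, gave 0.05 and 0.10. UQCR11, a small subunit, gave -0.32 (limma adjusted p 0.42). UQCRB, a small subunit near the ubiquinone site, gave -0.33 over NI birds that ranged from 7.84 to 9.93. UQCRQ, another small subunit, had the most positive difference of the complex, 0.07. The difference of UQCRC2 was negative in all 7 fits that left out a bird, between -0.71 and -0.29.

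The members of complex IV showed the smallest range of any complex with several members, from -0.16 to 0.19, with a median of -0.04, 7 of 9 negative, none called and 0 at an unadjusted p under 0.05. The median was -0.09 when NI bird 1 was left out. In 8 of the 9 the 95% interval lay within 0.5 log2 units of 0 on both sides, a fold of 1.414. Over all 73 members 40 intervals were that narrow. COX4I1, which carries a regulatory site for adenine nucleotides, read 13.57, 13.63, 13.70 and 13.73 in NI birds and 13.71, 13.87 and 13.96 in SA birds, a difference of 0.19 (SE 0.11, limma adjusted p 0.639). NDUFA4 was the member of the complex without overlap. Its NI birds read 14.00, 14.00, 13.93 and 13.92 and its SA birds 13.77, 13.84 and 13.81, and the difference was small, -0.15 (SE 0.10, limma adjusted p 0.686). COX6A1 and COX8A, small nuclear-coded subunits, gave -0.16 and -0.10.

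The ATP synthase had the highest share of negative differences among complexes with several members, 12 of 14, with a median of -0.12, none called and 3 at an unadjusted p under 0.05. The 3 genes of the c ring, the rotor through which protons pass, were all negative in their brightest probe sets. The count of 12 of 14 rests on the same choice of probe sets. ATP5G3 read 14.37, 14.42, 14.36 and 14.37 in NI birds and 14.24, 14.05 and 14.10 in SA birds, without overlap, at -0.25 (SE 0.10, limma adjusted p 0.433). ATP5G2 read 9.50, 9.78, 9.41 and 9.47 in NI birds and 9.15, 9.35 and 9.04 in SA birds, also without overlap, at -0.36 (SE 0.13, limma adjusted p 0.347). ATP5G1 gave -0.06 with overlapping groups. Its other probe set, at a mean log2 intensity of 12.81 against 14.14, gave 0.21, also with overlap. In mammals these 3 genes code for the same mature protein.

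All 4 measured genes of the F1 head, where ATP is made, were negative, with a median of -0.16, though 1 was dim, at brightness percentile 1.2. Among them ATP5F1AZ, the copy of the alpha subunit gene named for the Z chromosome, had the lowest difference of the complex, -0.41 (SE 0.19, limma adjusted p 0.484), with NI birds from 12.63 to 13.12 and SA birds from 12.10 to 12.85. Of the 6 genes of the stalk and membrane part 5 were negative, with a median of -0.11. ATP5O, the subunit that ties the F1 head to the outer stalk, lay lower in every SA bird than in every NI bird, by a gap of 0.04, at -0.21 (SE 0.11, limma adjusted p 0.584). ATP5S, also known as factor B and not a subunit, stood apart at 0.34 (SE 0.13, limma adjusted p 0.377), with SA birds at 10.89 to 11.05 and NI birds at 10.53 to 10.92.

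Averaged over the members of a complex, after each gene was centred on its mean over the 7 birds, the groups overlapped in every complex. They also overlapped over all 73 members, with NI birds at -0.03, 0.09, 0.01 and 0.06 and SA birds at -0.03, -0.09 and -0.01. For the ATP synthase the NI birds lay at 0.01, 0.16, 0.05 and 0.02 and the SA birds at -0.10, -0.14 and 0.02. SA bird 3 thus lay among the NI birds, and the median difference of the ATP synthase was -0.20 without it and -0.08 without SA bird 2. For complex I the NI birds lay between -0.01 and 0.04 and the SA birds between -0.05 and -0.01, with SA bird 1 just above NI bird 1. Complex I had 23 negative and 18 positive members. Its median was -0.02, and it moved to -0.07 when NI bird 1 or SA bird 3 was left out, to -0.05 when SA bird 1 was, and to -0.04 when SA bird 2 was. With NI bird 2 left out it was 0.00. Of the 73 members, NI birds 1 to 4 were the lowest of all 7 birds in 13, 8, 8 and 7, and SA birds 1 to 3 in 15, 14 and 8. NI birds were the highest in 16, 26, 5 and 10 members, and SA birds in 3, 4 and 9.

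**Figure D3:**
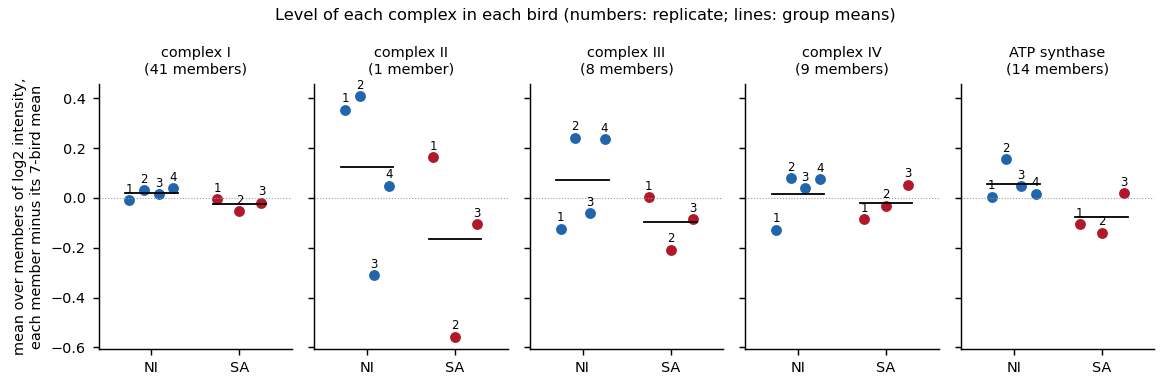
Mean over the members of each complex in each bird, with every gene centred on its mean over the 7 birds (log2 intensity, vertical axis). Points are labelled with the bird's number, and lines mark the group means. NI bird 2 is the highest for the ATP synthase, at 0.16, and SA bird 3, at 0.02, lies among the NI birds.

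Where a gene had several probe sets, they often differed. The 73 members had 129 probe sets, 34 members had more than 1 and 39 had a single one. Of the 56 dimmer probe sets 27 had the sign of the brightest one, none was called and 4 separated the groups. For comparison, 1.07% of all probe sets were called. Of all genes 5.93% had all SA birds below all NI birds, and 5.6% had them above. Both called genes were among those whose dimmer probe sets went the other way. NDUFV2 gave 0.11 and 0.17 in its others, at mean log2 intensities of 8.16 and 7.09 against 13.49 in the brightest. NDUFA7 gave 0.02 and 0.11, at 8.71 and 8.65 against 12.80. The dimmer probe sets of NDUFV2 lay below the array medians and those of NDUFA7 just above them. Whether low intensity bears on the opposite signs was not tested. The mean over all probe sets of the gene, which weights dim and bright ones alike, was -0.08 for NDUFV2 (limma adjusted p 0.806). For NDUFA7 it was -0.19 (limma adjusted p 0.538). UQCRC1, the partner of UQCRC2, gave 0.03 in the brightest probe set and -0.34 in the other, where all SA birds lay below all NI birds. The probe set of NDUFA7 has the suffix that marks probes shared by several transcripts, as had 17 of the 73 brightest probe sets, and what other transcripts add to its signal was not tested.

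**Figure D4:**
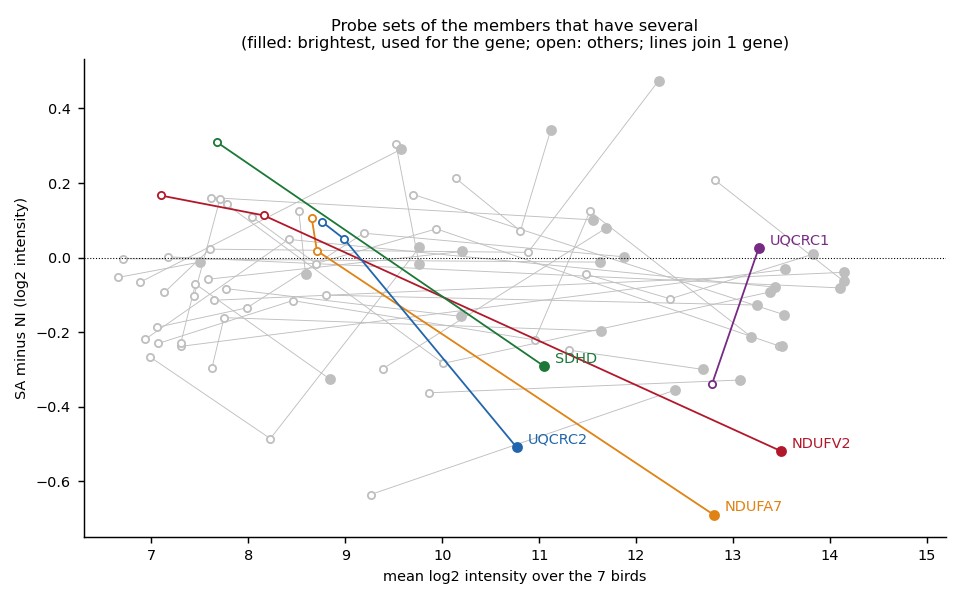
SA minus NI difference (log2 intensity, vertical axis) against the mean log2 intensity over the 7 birds (horizontal axis) for the probe sets of members with several, joined within a gene. The brightest probe set of NDUFV2 lies at -0.52 and its dimmer ones at 0.11 and 0.17.

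Of 59 further genes of oxidative phosphorylation, chiefly assembly factors, 36 were measured and 2 of them (5.56%, against 1.55% of all genes) were called, 1 in each direction, with a median difference of 0.01. The 13 genes of mitochondrial DNA on this list were not analysed here. UQCC3, which takes part in the assembly of complex III, rose in SA birds. It read 9.86, 9.86, 9.91 and 9.38 in NI birds and 11.31, 10.37 and 11.14 in SA birds, without overlap, at 1.19 (SE 0.23, limma adjusted p 0.0724). Its other probe set gave 0.10. It passed in 2 of 7 fits that left out a bird, those lacking NI bird 3 (limma adjusted p 0.0932) and SA bird 2 (0.0258). In the other 5 the limma adjusted p lay between 0.127 and 0.223, and with sex as a term it was 0.103.

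COX10, which makes the heme precursor of complex IV, fell. It read 10.07, 10.37, 10.21 and 10.23 in NI birds and 9.52, 9.75 and 9.54 in SA birds, without overlap, at -0.62 (SE 0.12, limma adjusted p 0.0752). Its other probe sets, dimmer at means of 8.39 and 8.05 against 9.96, gave 0.03 and 0.01. COX10 passed in none of the 7 fits that left out a bird, with limma adjusted p between 0.115 and 0.225. Nor did it pass with sex as a term (0.116). SDHA, the flavoprotein of complex II, gave -0.08 (SE 0.14, limma adjusted p 0.906) and CYCS, cytochrome c, gave 0.31 (SE 0.18, limma adjusted p 0.629), and neither was called.

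Bulk muscle holds several cell types, and fewer cells of a type and less RNA per cell cannot be told apart. The 7 measured markers of muscle fibres, all at brightness percentile 97.8 or above, summed to 164 to 168 in NI birds and 148 to 154 in SA birds. Sums are in units of 1000 on the linear intensity scale, where the brightest markers weigh most. Of these 7 markers 5 had a negative difference, with a median of -0.11, and 1 was called, lower. The 8 fibroblast and matrix markers summed to 11.6 to 21.1 in NI birds and 4.02 to 8.24 in SA birds, and 3 were called, all lower. Neither pair of ranges overlapped. Among 4 measured erythroid markers 1 was called lower, with overlapping sums, as was 1 of 2 nerve markers, whose sums were 0.726 to 1.08 in NI birds and 0.421 to 0.498 in SA birds. No marker of leukocytes, endothelium, adipocytes or smooth muscle was called. By comparison, 0.967% of all 12920 genes were called lower. Among the 3230 brightest genes, where all 7 fibre markers lie, 2.51% were called in either direction. How often sums over other sets of genes separate the groups was not computed. The part of these shifts of markers in the differences of NDUFV2, NDUFA7 and the other members was not tested.

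The members were also compared between the sexes, 5 females and 2 males, with group as a term in the limma fit. None of the 36897 probe sets was called by limma (0%), 969 (2.63%) had an unadjusted p under 0.05, and so had 4 members (NDUFAF2, COX7C, ATP5I and ATP5F1AZ). All 4 belong to the 5 members placed on the Z chromosome, of which male birds have a pair and females a single copy. ATP5F1AZ was placed there by its name and the others by the RefSeq annotation of the king penguin genome (assembly bAptPat1.pri.cur), in which 67 of the 73 symbols or their current names were found. The male minus female difference was 0.65 for NDUFAF2, an assembly factor of complex I, 0.64 for COX7C, a subunit of complex IV, 0.53 for ATP5I, a membrane subunit of the ATP synthase, and 0.44 for ATP5F1AZ, each with a limma adjusted p of 1. NDUFS4, the other Z member and a subunit of complex I, gave 0.01. The median was 0.53 over the 5 Z members and -0.01 over the other 68. Large differences were not confined to Z members. NDUFAF4, an assembly factor of complex I not placed on Z, had the largest of all 73 members, 0.79 (SE 0.41). UQCRB, also not placed on Z, gave 0.53 (SE 0.48).

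In NDUFAF2 and COX7C, and in no other member, both males lay above all 5 females. The share of all genes with such a separation was not computed, so that it cannot be read as particular to members on the Z chromosome. The males of NDUFAF2 read 10.23 and 10.20 and its females 9.09 to 9.98, and the males of COX7C read 11.99 and 12.16 and its females 10.92 to 11.89. Each group held 1 male. The SA minus NI difference of ATP5F1AZ was -0.41 without and -0.45 with sex as a term, with SE 0.19 and 0.14.

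**Figure D5:**
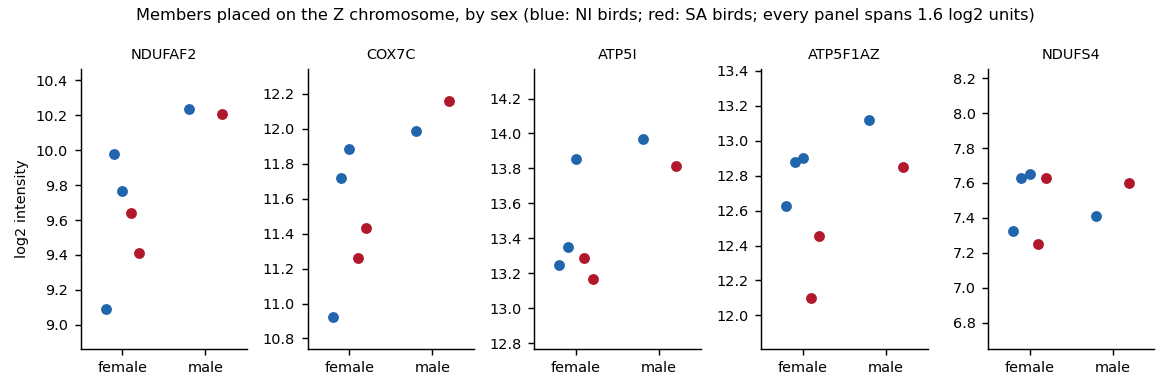
Log2 intensity in each bird (vertical axis) of the 5 members placed on the Z chromosome, by sex, with points for birds of either group. Both males lie above all females in NDUFAF2 and COX7C, and NDUFS4 shows a male minus female difference of 0.01.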

How the data were processed

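RNA from pectoralis biopsies of 7 king penguins was hybridized to Affymetrix chicken arrays. The authors kept perfect-match probes above the 95th percentile of background on at least 1 array, represented each probe set by its probe of maximum rank sum, and deposited quantile normalized log2 values for 36897 probe sets. limma is named, with no version, in the submitters' processing notes. No background subtraction is described, so dim probe sets may understate differences.

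Differences were computed here with limma 3.58.1 in R 4.3.3 (lmFit and eBayes, 9.34 total degrees of freedom), with Benjamini-Hochberg adjustment across the whole table and no filter. The fit was tested on simulated data, where it recovered 87% of changes of 1 log2 unit but only 14.2% of changes of 0.5. Most changes of that smaller size would thus not be called. With 4 and 3 birds, the number of arrays limits the precision. Symbols are those of the chicken platform annotation, and 26108 probe sets have 1 symbol, 171 several and 10618 none.

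Members, complexes and gene lists were chosen with earlier results of these data known. Genes were named if called, or among the 4 smallest p or the extreme differences of a complex. NDUFV1, NDUFB7, NDUFS3, ATP5O, UQCRC1, ATP5G1, NDUFAF4 and the members on the Z chromosome were named after their values were seen. Alternatives covered normalization, filters on dim probe sets, priors, weights on arrays, terms for sex or replicate number, a stricter threshold, each bird left out and other summaries of probe sets.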

Additional observations from a re-analysis of the deposited data

Results flagged for a closer look

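UQCC3, the assembly factor of complex III that was called higher in SA birds, had a single NI bird far from the others. NI bird 4 read 9.38 against 9.86 to 9.91 in the other 3, a gap of 0.901 of the range of the group, beyond Dixon's 95% critical value for 4 samples. The SA minus NI difference without NI bird 4 was 1.06, with a limma adjusted p of 0.138. Of 33 results tested in this way 1 was marked, and chance marks about 1 group in 20. Among all 73 members of the respiratory chain and the ATP synthase, 3 had such an NI bird.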

How the results depend on the processing

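The 2 calls among members were 1 with array weights and 0 with sex as a term, at an adjusted p under 0.05 and for the mean of all probe sets of a gene, and 0 to 1 with a bird left out. Over all probe sets 394 calls became 766 with array weights, 175 at 0.05 and 95 to 487 with a bird left out. With each bird left out, members with all SA birds below numbered 10 to 18, or 13.7% to 24.7%, against 7.58% to 12.9% of genes. Those above numbered 3 to 6, or 4.11% to 8.22%, against 6.8% to 14.5% of genes. When all 129 probe sets of the members were counted, 4 had SA birds above. The median of complex I, -0.02, was -0.061 for the mean of all probe sets, -0.13 for structural subunits and -0.0748 to -0.0024 with a bird left out. That of complex III was -0.0034 to -0.2263 and that of the ATP synthase -0.2047 to -0.0775. SDHD turned to 0.0094 for the mean of its probe sets. SDHA turned to 0.0131 with array weights, and ranged from -0.1922 to 0.0819 with a bird left out. The causes were not tested. Median centring, cyclic loess, filters on dim probe sets and trend or robust priors left both members called.

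Replicate numbers are shared between the groups but name different birds. Deviations of same-numbered birds correlated at 0.29, -0.03 and 0.17, and those of the other pairs at -0.37 to 0.32. So few pairs cannot decide whether birds of the same number shared a further factor. With the replicate number as a block 624 probe sets and 0 members were called, and not every bird correlated best with its own number.

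The precision is limited by 7 birds and by single probes of another species. For uncalled members whose interval includes both 0 and a difference of 0.5 log2 units, neither can be told from the other.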

Other observations

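ATPIF1, the inhibitor that keeps the ATP synthase from running backwards, varied widely among NI birds. It was chosen after its values were seen. NI birds read 12.06, 13.14, 10.85 and 12.91 and SA birds 12.76, 13.05 and 13.09. The groups overlapped, and the difference was 0.73 (SE 0.46, limma adjusted p 0.675).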
